A study of Mus musculus with 69 samples.

Results

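Peak lists of 2 histone marks were examined at the MHC class II pathway genes, the genes that let a cell show pieces of taken-up protein to CD4+ T cells. The 7 genes were H2-Aa, H2-Ab1, H2-Eb1, H2-DMa, H2-DMb1, Cd74 and Ciita, out of 21887 protein-coding genes. They were chosen by name, and every peak within 50 kb of 1 of their gene intervals was taken from each of the 18 lists. The 5 H2 genes are neighbours on chromosome 17, so a peak there was counted once for the locus.

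The marks were H3K4me1, which is found at enhancers, and H3K27ac, which is found at active enhancers and promoters. Both were mapped by ChIPmentation, in which chromatin is precipitated with an antibody and then tagged by the transposase Tn5, in cells sorted from mice. The cells were blood-forming progenitors (haematopoietic progenitor cells, HPCs) and the stem cells above them (haematopoietic stem cells, HSCs). Knockout mice were Kmt2c f/f; Vav-Cre, heterozygous mice were Kmt2c f/+; Vav-Cre, and the third group was wild type. The Kmt2c protein, MLL3, is a methyltransferase for H3K4me1 at enhancers. Vav-Cre is active throughout the blood lineage, so the deletion was not limited to HSCs or HPCs. H3K4me1 of untreated mice was mapped at 8 weeks of age in knockout, heterozygous and wild-type HPCs and HSCs, with 3 libraries in each of these 6 lists. HSCs of knockout and wild-type mice were also profiled at 16 weeks for both marks, after 3 treatments at intervals of 3 weeks with 150 mg/kg of 5-fluorouracil (5FU), which kills dividing cells, or with PBS. Each of the 4 H3K27ac lists of these HSCs came from 3 libraries. The H3K4me1 lists came from 4 libraries for knockout 5FU, 6 for wild-type 5FU, 3 for knockout PBS and 4 for wild-type PBS. H3K27ac of HPCs was mapped in knockout and wild-type mice aged 8 to 10 weeks after 3 days of interleukin-1 (IL-1) at 0.5 µg per day or of PBS, with 4 libraries in each of the 4 lists.

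MHC class II molecules are pairs of an α and a β chain. H2-Aa and H2-Ab1 encode the chains of I-A, and H2-Eb1 encodes the β chain of I-E. Cd74 encodes the invariant chain, which fills the groove of a new class II molecule and guides it to endosomes, and H2-DMa and H2-DMb1 encode the chains of H2-DM, which exchanges the last piece of the invariant chain for antigen peptides. Ciita encodes the transactivator of all of these genes. It does not bind DNA by itself and is recruited by the factors RFX, CREB and NF-Y, which sit on the X and Y boxes of class II promoters. B cells, dendritic cells and activated macrophages are the cells best known for class II.

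Every group had 1 list for all its libraries. A value below therefore has no replicate error, no test was possible, and each difference is a difference between 2 lists. The 18 lists held 37002 to 134509 peaks. The libraries of the wild-type 5FU H3K4me1 list carry 2 different prefixes in their titles, whose meaning the labels do not give. This list stood apart from the other 16-week H3K4me1 lists, with 116 Mb covered by peaks against 44.2 to 54.0 Mb. Of its peaks, 28.1% were at a −log10 q of at least 5, against 0.635% to 1.04%. Over the 50 kb window around Kmt2c itself, peaks covered 6658 to 7329 bases in the H3K27ac lists and 2826 to 25285 bases in the H3K4me1 lists. These values do not test the labels, because a peak list does not show the deletion of exons.

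The class II genes of chromosome 17 lay between 34119693 and 34316674 on mm10. H2-DMa spanned 34119693 to 34139101, H2-DMb1 34153191 to 34160229, H2-Ab1 34263227 to 34269418, H2-Aa 34282744 to 34287823 and H2-Eb1 34305867 to 34316674. The 50 kb windows around them formed 2 blocks of 140537 and 153448 bases, which also hold H2-Oa, H2-Ob, H2-DMb2, H2-Eb2, Brd2, Btnl2 and the class I processing genes Psmb9, Tap1, Psmb8 and Tap2. Ciita spanned 10480014 to 10531064 on chromosome 16, with Tvp23a, Dexi and Clec16a in its window. The position of Cd74 is given with its values. Because H2-Ab1, H2-Aa and H2-Eb1 share most of their windows, their window values repeat much of the same peaks. Cover of a gene itself was also summed over its interval with 1 kb on both sides, a measure added after the window values had been seen.

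The promoter windows of the class II chain and H2-DM genes are printed because they hold the boxes through which RFX and NF-Y, and with them Ciita, reach these genes. RefSeq windows of 300 bases (250 before and 50 after an annotated start, build GRCm38.p6) were at hand for 4 of the 7 genes, H2-Aa, H2-Eb1, H2-DMb1 and H2-DMa. An annotated start need not be the end of the gene interval. Capitals mark the letters GNAACT, part of the X box, and TGATTGG, a Y box that holds the CCAAT core of NF-Y on its other strand.
H2-Aa, chr17:34287774-34288073, minus strand: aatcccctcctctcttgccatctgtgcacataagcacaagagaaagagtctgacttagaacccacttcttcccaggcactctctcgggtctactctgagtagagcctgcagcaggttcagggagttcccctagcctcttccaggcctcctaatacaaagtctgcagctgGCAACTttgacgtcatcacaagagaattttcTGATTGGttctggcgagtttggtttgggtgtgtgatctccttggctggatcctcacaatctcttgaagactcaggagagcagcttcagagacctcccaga
H2-Eb1, chr17:34305617-34305916, plus strand: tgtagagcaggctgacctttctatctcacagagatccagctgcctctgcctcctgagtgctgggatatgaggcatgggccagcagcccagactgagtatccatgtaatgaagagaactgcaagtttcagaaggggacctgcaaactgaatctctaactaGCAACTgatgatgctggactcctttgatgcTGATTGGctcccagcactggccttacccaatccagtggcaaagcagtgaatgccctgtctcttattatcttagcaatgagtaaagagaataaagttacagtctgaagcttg
H2-DMb1, chr17:34152941-34153240, plus strand: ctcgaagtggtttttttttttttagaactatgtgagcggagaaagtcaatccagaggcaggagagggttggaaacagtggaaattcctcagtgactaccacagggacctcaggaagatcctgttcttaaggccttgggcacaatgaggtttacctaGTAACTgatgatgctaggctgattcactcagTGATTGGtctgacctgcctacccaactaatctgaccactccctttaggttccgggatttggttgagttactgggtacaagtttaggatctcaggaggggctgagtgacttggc
In these 3 windows GNAACT began 81, 91 and 94 bases before the start and was followed after 25, 24 and 25 bases by TGATTGG. The pair was noticed on reading these sequences, and it is a description of letters, not of binding. With 10 to 30 bases allowed in between, and both strands searched, it occurred in 61 of the 32851 RefSeq windows (0.186%), against 42.8% with GNAACT and 7.82% with TGATTGG on their own. H2-Eb2, another of the class II β chain genes, held it too. The 2 windows of H2-DMa did not hold these letters in this arrangement, and neither did those of H2-Oa, H2-Ob and H2-DMb2. The H2-DMa windows, from 34122582 and 34125268, lie inside its interval, which begins at 34119693. The H2-DMb2 window, from 34144999, lies inside an interval that begins at 34143229. The lower-coordinate ends of these intervals were not searched.

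The promoter with the pair in H2-Aa was under an H3K27ac peak in all 8 lists. Peaks covered 259 to 300 of its 300 bases in the 4 HPC lists and 69 to 168 bases in the 4 HSC lists. The H2-DMb1 window was touched by H3K27ac peaks in 3 of 4 HPC lists and in all 4 HSC lists, and the H2-Eb1 window in 3 of 4 lists of each cell type. The 1 HPC list without a peak on either window was that of IL-1-treated knockout mice. On the H2-Eb1 window H3K27ac covered 300 bases in knockout HPCs with PBS, but 73 and 10 bases in wild-type HPCs with IL-1 and PBS. In the HSC lists it covered at most 87 bases there. H3K4me1 peaks covered all 300 bases of the H2-DMb1 window in the 3 HPC lists and touched it in 4 of 7 HSC lists. They touched the H2-Eb1 window in 2 of 3 HPC lists and 4 of 7 HSC lists. The H2-Eb2 window, with the same pair, was at 0 bases in all 18 lists. Windows without the pair were covered too. H3K27ac peaks covered all 300 bases of the H2-Oa and H2-Ob windows in the 4 HPC lists. In the HSC lists they covered 195 to 300 and 43 to 237 bases. The H2-DMa window from 34122582 had 300 bases of H3K27ac in HPC lists and 255 to 300 in HSC lists. It overlaps the upper end of Brd2, at 34122814, so this mark cannot be assigned to H2-DMa or to Brd2. H3K4me1 peaks covered 0 bases of it in the 3 HPC and 7 HSC lists. The second H2-DMa window and that of H2-DMb2 had at most 92 bases of H3K27ac in HPC lists and 0 in HSC lists.

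H2-Aa and H2-Ab1, with 1 kb on both sides, held peaks in all 18 lists, and H2-Eb1 in all but 1 H3K27ac list. Of H2-Aa with 1 kb on both sides, H3K4me1 peaks covered 40.1% in knockout, 33.2% in heterozygous and 37.3% in wild-type HPCs, against 46.7%, 40.9% and 32.5% in knockout, heterozygous and wild-type HSCs at 8 weeks. H3K27ac peaks covered 31.0% and 36.3% of it in knockout and wild-type HPCs with IL-1 and 30.4% and 34.0% with PBS. In HSCs the H3K27ac shares were 25.9% and 33.1% in knockout and wild-type mice with 5FU and 25.5% and 25.1% with PBS. The HPC and HSC shares of H2-Aa overlapped for both marks. H2-Ab1 had 14.9%, 17.8% and 27.7% under H3K4me1 in knockout, heterozygous and wild-type HPCs, against 11.6%, 11.3% and 12.6% in the HSC lists of the same genotypes. Its lowest H3K4me1 shares were 2.48% in knockout and 7.13% in wild-type HSCs with PBS, and 3.31% and 10.4% in knockout and wild-type HSCs with 5FU. H3K27ac covered 15.1% and 15.3% of H2-Ab1 in knockout and wild-type HPCs with IL-1 and 28.4% and 24.6% with PBS, against 7.15% and 12.6% in knockout and wild-type HSCs with 5FU and 11.8% and 19.5% with PBS. H2-Eb1 went the other way between cell types for H3K4me1, with 14.6%, 19.6% and 10.8% in knockout, heterozygous and wild-type HPCs and 20.8%, 23.6% and 17.8% in HSCs. H3K27ac on H2-Eb1 was absent from the list of IL-1-treated knockout HPCs and reached at most 12.2% in any list, that of wild-type HPCs with PBS.

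**Figure D1:**
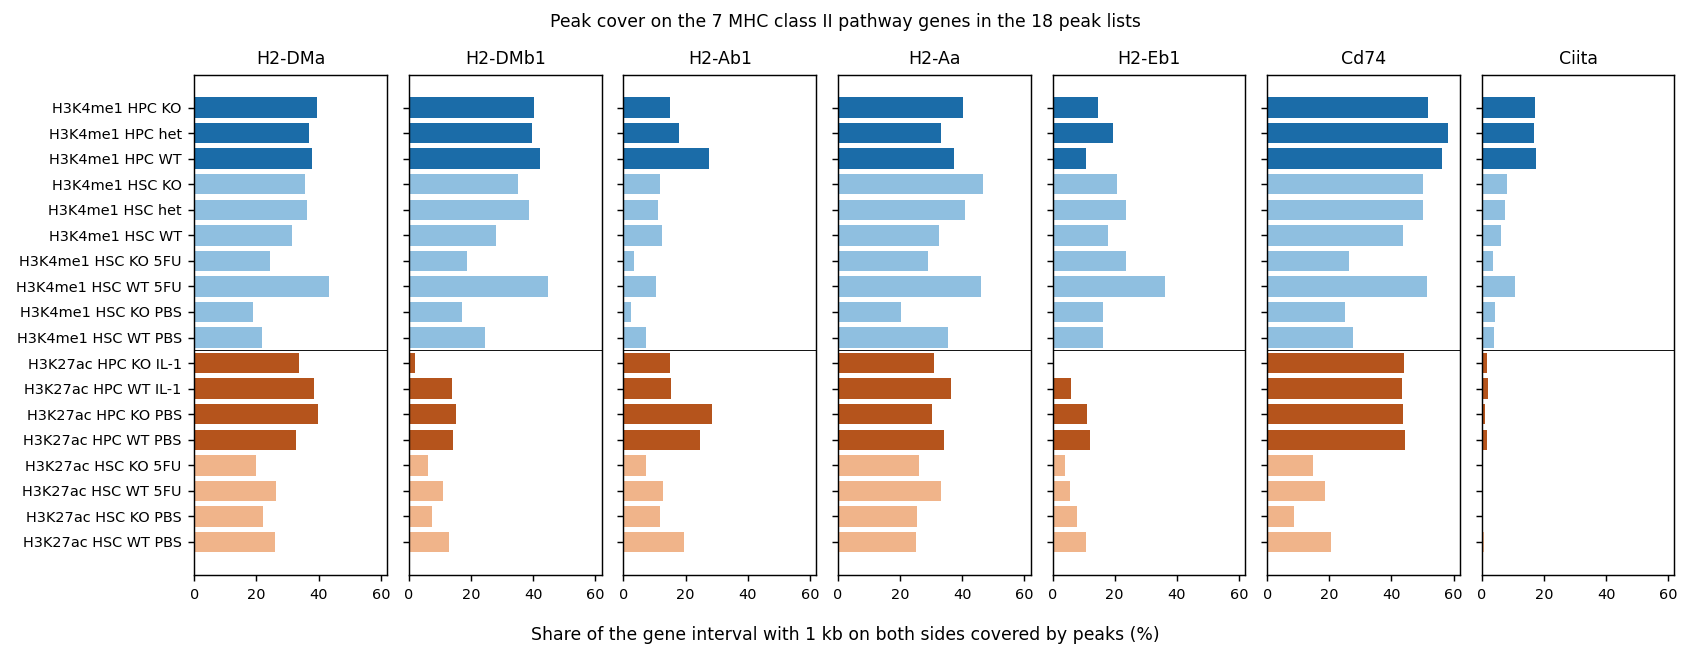
Share of each gene interval with 1 kb on both sides covered by peaks (x axis, %) in the 18 lists (rows; dark bars HPC, light bars HSC, blue H3K4me1, orange H3K27ac). Each bar is 1 pooled list. HPC bars lie above all HSC bars of the mark for Cd74 and Ciita under both marks, H2-Ab1 under H3K4me1 and H2-DMa under H3K27ac. For Cd74 under H3K4me1 the lowest HPC bar is at 51.7% and the highest HSC bar at 51.3%.

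The H2-DM genes carried H3K4me1 in all 10 lists and H3K27ac in all 8. H3K4me1 covered 39.6%, 37.0% and 37.8% of H2-DMa in knockout, heterozygous and wild-type HPCs and 35.7%, 36.4% and 31.4% in HSCs at 8 weeks. Its H3K27ac cover was 33.6% and 38.4% in knockout and wild-type HPCs with IL-1, and 39.6% and 32.6% with PBS, against 19.8% to 26.3% in the 4 HSC lists. Much of that H3K27ac lay in 1 region, 34117145 to 34123708, where the upper end of Brd2, which encodes a reader of acetylated histones, overlaps the lower end of the H2-DMa interval. It held the strongest H3K27ac peak of the chromosome 17 windows in every list, with a −log10 p of 60.3 and 130 in knockout and wild-type HPCs with IL-1, 114 and 111 with PBS, 35.6 and 72.7 in knockout and wild-type HSCs with 5FU and 51.6 and 70.8 with PBS. The mark there cannot be assigned to Brd2 or to H2-DMa from a peak list. H2-DMb1 had 40.1%, 39.5% and 42.2% under H3K4me1 in knockout, heterozygous and wild-type HPCs and 35.2%, 38.5% and 28.1% in HSCs. H3K27ac on H2-DMb1 covered 2.08% in IL-1-treated knockout HPCs, the lowest of the 8 lists, and 13.8% to 15.2% in the other 3 HPC lists, against 6.04% to 12.9% in HSCs.

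Cd74 spanned 60803849 to 60812652 on chromosome 18, with Rps14 and Tcof1 beside it. It had the largest share under H3K4me1 of the 7 genes in each of the 6 lists at 8 weeks. H3K4me1 peaks covered 51.7%, 58.2% and 56.4% of it in knockout, heterozygous and wild-type HPCs and 50.2%, 50.1% and 43.6% in HSCs at 8 weeks. The H3K4me1 region there ran from 60802898 to 60809640, from just below the gene into its lower part, and was found in all 10 H3K4me1 lists. For H3K27ac the cell types were far apart. In HPCs, H3K27ac peaks covered 43.9% and 43.3% of Cd74 in knockout and wild-type mice with IL-1 and 43.8% and 44.4% with PBS. In HSCs the shares were 14.9% and 18.5% in knockout and wild-type mice with 5FU and 8.59% and 20.7% with PBS. The 4 HPC shares differed by little and lay above all 4 HSC shares. The H3K27ac region from 60803779 to 60808214 covered 4154 to 4237 bases in the HPC lists and 889 to 2009 bases in the HSC lists. The HPC and HSC lists of H3K27ac differ in age, treatment and number of libraries, so these values are side by side only and the cell type cannot be told apart from the rest.

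**Figure D2:**
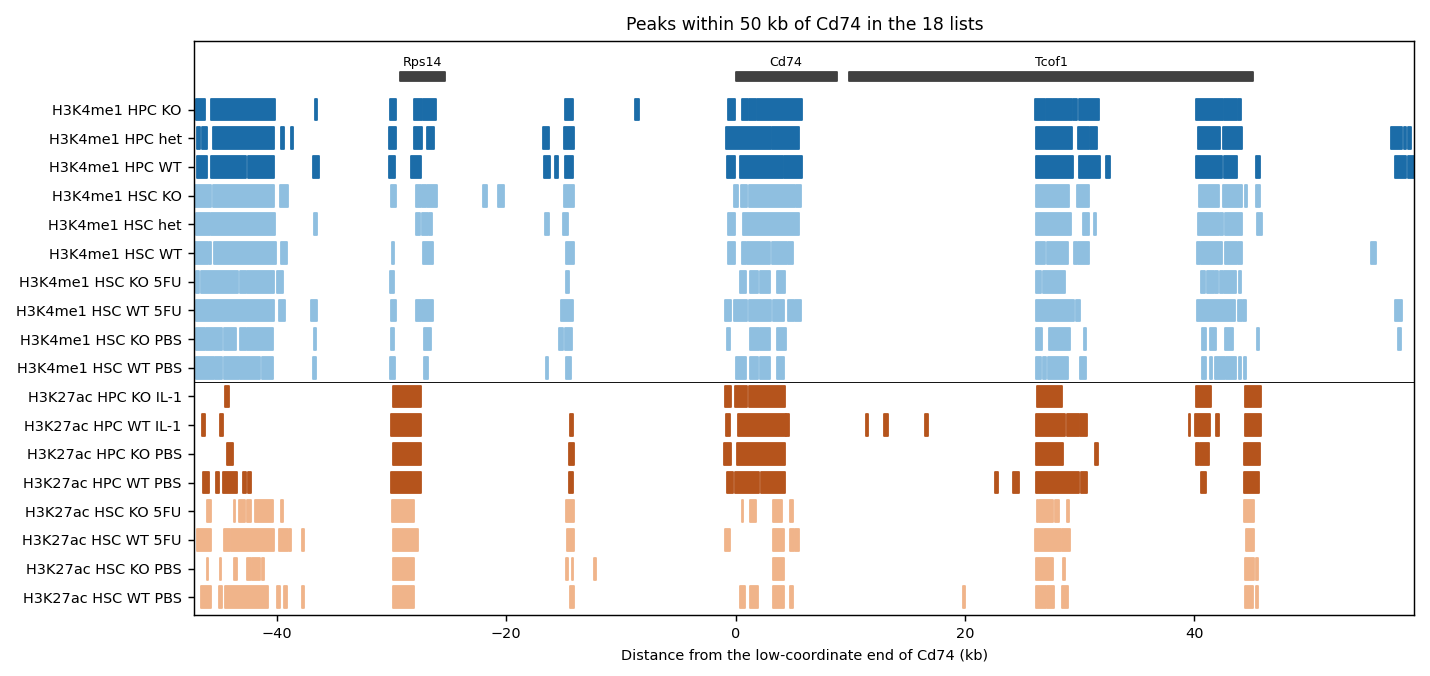
Peaks within 50 kb of Cd74 (bars; x axis, distance from the lower-coordinate end of the gene in kb) in the 18 lists (rows), with gene intervals on top; colours as by mark and cell type. The H3K27ac bars on Cd74 are long in the 4 HPC lists (4154 to 4237 bases) and short in the 4 HSC lists (889 to 2009 bases).

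Ciita carried H3K4me1 and almost no H3K27ac. H3K4me1 peaks covered 9007, 8888 and 9322 bases of Ciita with 1 kb on both sides in knockout, heterozygous and wild-type HPCs, against 4279, 3954 and 3208 bases in knockout, heterozygous and wild-type HSCs at 8 weeks. The HSC lists at 16 weeks had 1933 bases for knockout 5FU, 5642 for wild-type 5FU, 2178 for knockout PBS and 2146 for wild-type PBS. All 3 HPC values lay above all 7 HSC values, including that of the large wild-type 5FU list. H3K27ac peaks on Ciita covered 819 and 1042 bases in knockout and wild-type HPCs with IL-1 and 561 and 910 bases with PBS, against 78 and 0 bases in knockout and wild-type HSCs with 5FU and 142 and 462 bases with PBS. The H3K27ac peaks of Ciita were weak in their own lists. In wild-type HPCs with PBS, the best of them had a −log10 p of 3.89, and 80.3% of the peaks of that list were stronger.

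The H3K4me1 cover of Ciita in HPCs came from separate sites. The clearest lay inside the gene, 35.1 to 37.9 kb above its lower-coordinate end, from 10515134 to 10517912. It covered 2528, 2441 and 2376 bases in knockout, heterozygous and wild-type HPCs, against 543 bases in knockout HSCs and 0 bases in heterozygous and wild-type HSCs at 8 weeks and in all 4 HSC lists at 16 weeks. The 543 bases of knockout HSCs were a weak peak, with a −log10 p of 4.25 and 93.6% of that list's peaks above it. A second site inside the gene, from 10487189 to 10490706, covered 2864, 2334 and 2935 bases in knockout, heterozygous and wild-type HPCs and 0, 890 and 0 bases in HSCs, with 1129 bases in wild-type 5FU and 265 bases in knockout PBS HSCs. Below the gene, the site from 10474559 to 10477072 covered 2314, 1613 and 2297 bases in knockout, heterozygous and wild-type HPCs and 459, 750 and 0 bases in HSCs. A smaller site further below, from 10470147 to 10471447, had 1003, 1082 and 923 bases in knockout, heterozygous and wild-type HPCs and 0, 260 and 0 bases in HSCs. One site inside the gene was shared. From 10522769 to 10526591, near its upper end, H3K4me1 covered 2783, 3185 and 3131 bases in knockout, heterozygous and wild-type HPCs and 2498, 2326 and 2511 bases in HSCs, and 1645 to 3166 bases in the lists at 16 weeks. The H3K27ac peaks of the 4 HPC lists on Ciita lay within that shared site, from 10524521 to 10525917.

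**Figure D3:**
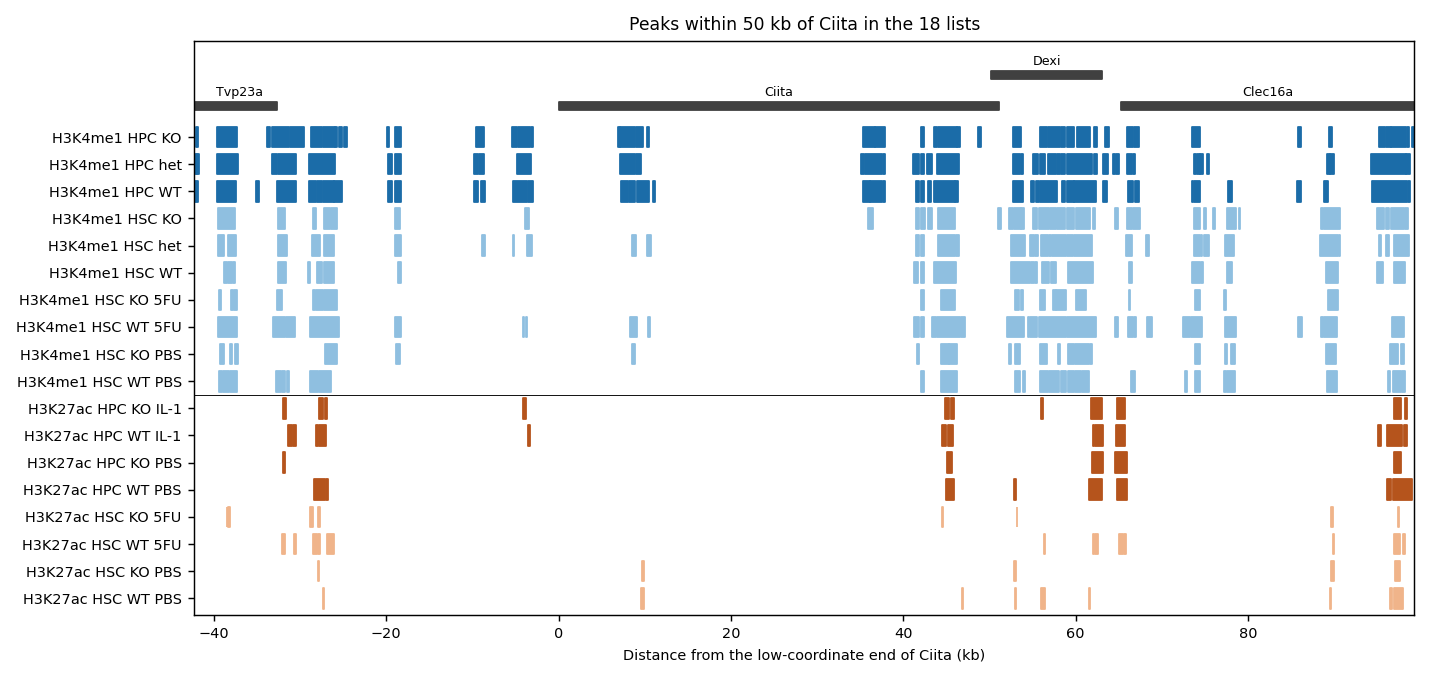
Peaks within 50 kb of Ciita (bars; x axis, distance from the lower-coordinate end of the gene in kb) in the 18 lists (rows), with gene intervals on top; colours as by mark and cell type. The H3K4me1 site at 35.1 to 37.9 kb has long bars in the 3 HPC lists and 1 short bar among the HSC lists, and H3K27ac is sparse over the gene in all 8 lists.

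The question of how class II loci differ between HPCs and HSCs was put to the H3K4me1 lists at 8 weeks, which were matched in age and number of libraries. Over the whole 50 kb windows, cover of all 7 genes was higher in HPCs than in HSCs in each of the 3 genotypes. The Ciita window had 36585, 36932 and 38038 covered bases in knockout, heterozygous and wild-type HPCs, against 26683, 26469 and 20461 bases in HSCs. The class II locus had 97239, 102659 and 98965 covered bases in knockout, heterozygous and wild-type HPCs, against 73521, 75413 and 62789 bases in HSCs. The Cd74 window had 24659, 25499 and 25971 bases in HPCs and 24525, 22463 and 21500 bases in HSCs, in the same order of genotypes. The HPC and HSC values did not overlap in any of these windows, but those of Cd74 came close to each other in the knockout. In sorted populations, more cells with a mark and more of the mark per cell cannot be told apart.

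To set such values against the size of the lists, 1000 bases were added to each covered length before the log2 ratio was formed, and the ratio of the median gene was subtracted. The median gene lay between −1.20 and 1.02 in the 21 comparisons made, and beyond 0.1 from 0 in 11 of them. A difference of at least 1.5-fold in this relative ratio (0.58 on the log2 scale) was used to count genes, as a size and not as a test. For HPCs over HSCs, the median gene that was subtracted lay at −0.14 in the knockout, −0.03 in the heterozygous mice and 0.25 in the wild type. Ciita had a relative log2 ratio of 0.58 in the knockout, 0.50 in the heterozygous mice and 0.61 in the wild type. The class II locus had 0.54, 0.47 and 0.40, and Cd74 had 0.15, 0.21 and 0.01 in the same genotypes. All 7 genes lay above the median gene in each genotype, and Cd74 lay nearest to it. Past 1.5-fold higher were 0 of 7 genes in the knockout, where 8.92% of 17321 genes were, 0 of 7 in the heterozygous mice, where 9.16% of genes were, and 1 of 7, Ciita, in the wild type, where 9.84% of genes were. None was 1.5-fold lower, against 12.6%, 10.8% and 9.15% of genes in the knockout, the heterozygous mice and the wild type. A count of 0 or 1 of 7 genes is near the background.

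On the genes themselves, with 1 kb on both sides, Ciita stood out more. Its relative log2 ratio for HPCs over HSCs was 1.08 in the knockout, 1.06 in the heterozygous mice and 1.11 in the wild type, and it was the only one of the 7 past 1.5-fold higher in each genotype. Of all genes measured this way, 10.4%, 10.7% and 12% passed higher in the knockout, the heterozygous mice and the wild type. H2-Eb1 had −0.19 in the knockout, −0.13 in the heterozygous mice and −0.65 in the wild type, the last past 1.5-fold lower, as were 10.6% of genes. H2-Aa lay within 0.16 of the median gene in each genotype. The window and the gene thus gave H2-Eb1 opposite signs, since its window also holds peaks at H2-Aa, H2-Eb2 and Btnl2 and between the genes.

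Of the sites between the class II genes, 4 are given here, chosen after their values were seen. From 34247784 to 34249699, between H2-Ob and H2-Ab1, H3K4me1 covered 1744, 1705 and 1914 bases in knockout, heterozygous and wild-type HPCs and 207, 0 and 0 bases in HSCs at 8 weeks, and 0 in all 4 HSC lists at 16 weeks. In the heterozygous HPC list this site was among the strongest, with 0.363% of peaks above its −log10 p of 34.4. At the lower end of H2-Ab1, from 34260031 to 34263260, H3K4me1 covered 2620, 2844 and 3125 bases in knockout, heterozygous and wild-type HPCs and 1406, 1667 and 684 bases in HSCs. From 34344803 to 34349749, between H2-Eb2 and Btnl2, the values were 4894, 4724 and 4938 bases in HPCs and 3321, 4000 and 2472 bases in HSCs. In the other direction, the site at the upper end of H2-Eb1, from 34316578 to 34317306, had 0 bases in all 3 HPC lists and 264, 522 and 409 bases in knockout, heterozygous and wild-type HSCs. It was the only 1 of the 149 H3K4me1 sites of the windows found in all 3 HSC lists at 8 weeks and in none of the HPC lists, and 5 sites showed the reverse. The share of such sites over the whole lists was not computed, so these counts are no result about the class II loci.

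**Figure D4:**
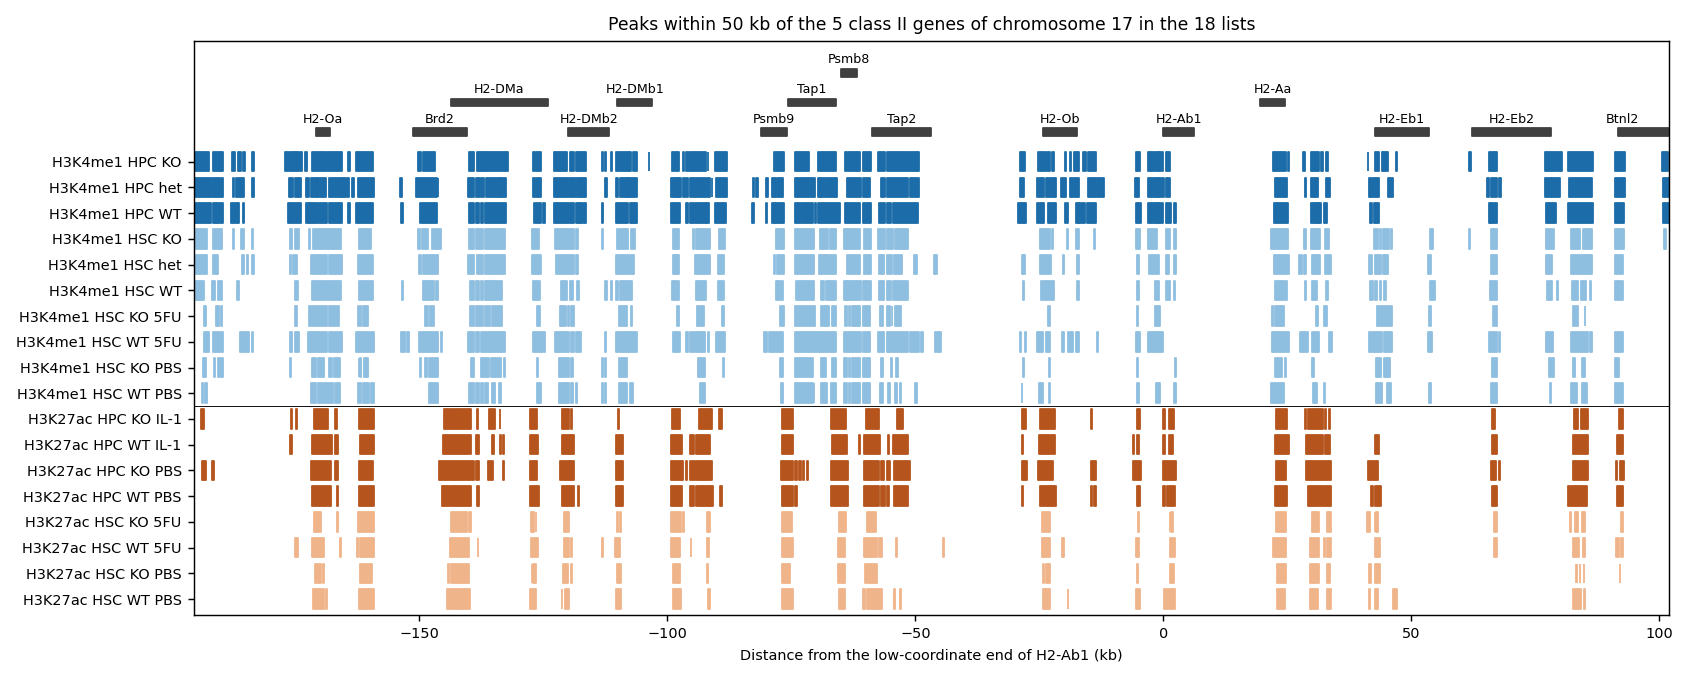
Peaks within 50 kb of the 5 class II genes of chromosome 17 (bars; x axis, distance from the lower-coordinate end of H2-Ab1 in kb) in the 18 lists (rows), with gene intervals on top; colours as by mark and cell type. The H3K27ac bars between H2-Aa and H2-Eb1 are longer in the 4 HPC lists (2878 to 3366 bases) than in the 4 HSC lists (1420 to 1722 bases).

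H3K27ac at the class II locus also ran over more bases in HPCs than in HSCs. Peaks covered 43364 and 53892 bases in knockout and wild-type HPCs with IL-1 and 64236 and 57892 bases with PBS. In HSCs they covered 27001 and 35649 bases in knockout and wild-type mice with 5FU and 25298 and 33124 bases with PBS. The site between H2-Aa and H2-Eb1, from 34291853 to 34295368, had a −log10 p of 35.7 and 43.1 in knockout and wild-type HPCs with IL-1 and 27.8 and 37.7 with PBS, against 6.68 and 7.99 in knockout and wild-type HSCs with 5FU and 6.61 and 12.1 with PBS. It covered 2878 to 3366 bases in HPCs and 1420 to 1722 bases in HSCs. H3K4me1 also marked this place, from 34293021 to 34294903, in all 10 lists. Of the 111 H3K27ac sites in the windows, 24 were in all 8 lists, and of these 18 lay in the class II locus, 5 around Cd74 and 1 around Ciita. Sites in all 4 HPC lists and no HSC list numbered 3. One was 3170 bases from H2-Ob, one was inside H2-Ob, which encodes a chain of the H2-DM inhibitor H2-O, and one was inside Tcof1. The reverse, all 4 HSC lists and no HPC list, held for 1 site, inside Clec16a. Shares of such sites over the whole lists were not computed, so these counts describe the windows only. Again the lists of the 2 cell types differ in age and treatment, so no ratio was taken.

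Loss of Kmt2c went with small differences in H3K4me1 at 8 weeks. In HPCs, the relative log2 ratio of knockout over wild type was −0.02 for the class II locus, −0.07 for Cd74 and −0.05 for Ciita. In HSCs it was −0.16, −0.21 and −0.02, relative to a median gene at 0.39. For heterozygous over wild type, the 3 loci lay at 0.09, 0.01 and −0.00 in HPCs and at 0.02, −0.18 and 0.12 in HSCs. For knockout over heterozygous they lay at −0.11, −0.08 and −0.05 in HPCs and at −0.18, −0.02 and −0.13 in HSCs, with 0 of 7 genes above the median gene in either cell type. The comparisons of 1 cell type share lists 2 by 2. None of the 7 genes was past 1.5-fold in any of the 6 comparisons. Among all genes, 4.86% were higher and 1.01% lower for knockout over wild-type HSCs, 2.92% and 1.02% for heterozygous over wild-type HSCs, and 1.95% and 0.898% for knockout over heterozygous HSCs. In HPCs the shares were 2.04% higher and 2.48% lower for knockout over wild type, 1.5% and 1.8% for heterozygous over wild type, and 1.85% and 1.68% for knockout over heterozygous. On the genes with 1 kb on both sides, 1 value passed, that of H2-Eb1 for heterozygous over wild-type HPCs, at 0.59, with 2508 and 1377 bases, where 2.99% of genes were past 1.5-fold higher.

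In H3K27ac lists, Ciita and Cd74 had fewer covered bases in the knockout than in the wild type in all 4 pairs of lists. Each of the 5 H2 genes did so in 3 of the 4 pairs. The whole lists were also smaller in the knockout. They covered 36.5 Mb in knockout and 45.4 Mb in wild-type HSCs with 5FU, and 33.4 and 42.2 Mb with PBS. In HPCs they covered 36.9 and 44.9 Mb with IL-1, and 43.1 and 45.9 Mb with PBS. The Ciita window had 1503 bases in knockout and 4387 in wild-type HSCs with 5FU, and 1426 and 2722 bases with PBS. In HPCs it had 5615 bases in the knockout and 7669 in the wild type with IL-1, and 4150 and 7856 bases with PBS. The relative log2 ratios of knockout over wild type were −0.95 in HSCs with 5FU, −0.46 in HSCs with PBS, −0.29 in HPCs with IL-1 and −0.84 in HPCs with PBS. Past 1.5-fold lower were thus 1 of 7 genes, Ciita, in HSCs with 5FU, against 5.08% of 15572 genes, and 1 of 7, again Ciita, in HPCs with PBS, against 3.39% of genes. The count was 0 of 7 in HSCs with PBS, against 4.7% of genes, and in HPCs with IL-1, against 3.34%. None of the 7 was 1.5-fold higher in these 4 comparisons, against 0.655%, 1.34%, 0.768% and 0.764% of genes in the same order. The 4 pairs share no list.

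Much of this difference lay outside Ciita itself. Inside Clec16a, a gene of autophagy, the H3K27ac site from 10576116 to 10579034 covered 1013 bases in knockout and 2153 bases in wild-type HPCs with IL-1, and 896 and 2646 bases with PBS. In HSCs it covered 123 and 933 bases in knockout and wild-type mice with 5FU, and 616 and 1248 bases with PBS. The wild type was higher in all 4 pairs. On the gene itself, Ciita had under 1000 bases in both lists of each pair but the one with IL-1, so it was measured in that pair alone, at −0.12. The direction depended on the settings. With a window of 10 kb, the ratio was 0.10 in HPCs with IL-1, and both HSC lists with 5FU had under 1000 bases. With both lists limited to equal covered bases by their strongest peaks, it was 0.39 in HSCs with 5FU, 0.68 in HSCs with PBS and 0.44 in HPCs with IL-1, against −0.82 in HPCs with PBS. With windows of 100 kb it was −0.40 in HSCs with 5FU and −0.43 in HPCs with PBS, both short of 1.5-fold.

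The Cd74 window had 10038 bases in knockout and 15123 bases in wild-type HSCs with 5FU, and 7793 and 13180 bases with PBS. In HPCs it had 12387 bases in the knockout and 16495 in the wild type with IL-1, and 13029 and 17156 bases with PBS. Relative log2 ratios of knockout over wild type were −0.39, −0.53, −0.29 and −0.43 in that order, none past 1.5-fold. In HPCs with IL-1 the ratio was 0.02 with peaks of a −log10 p of at least 4 and 0.07 on the gene, and the other 3 stayed below 0 under each setting tried. On Cd74 itself the HPC lists barely differed, with 4741 bases in knockout and 4676 in wild-type HPCs with IL-1 and 4728 and 4802 bases with PBS. In HSCs with PBS the gene had 928 bases in the knockout and 2234 bases in the wild type, a relative log2 ratio of −0.67, past 1.5-fold lower as were 6.33% of genes. With 5FU it had 1607 and 1995 bases, a ratio of −0.12. A region near Ndst1, from 60758817 to 60763574, also differed, at 2546 bases in knockout and 4199 in wild-type HSCs with 5FU and 1581 and 4029 bases with PBS. The class II locus lay at −0.23 in HSCs with 5FU, −0.22 in HSCs with PBS, −0.21 in HPCs with IL-1 and 0.09 in HPCs with PBS.

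In knockout HPCs the class II locus had less H3K27ac with IL-1 than with PBS. There the locus had 43364 bases with IL-1 and 64236 bases with PBS, a relative log2 ratio of −0.38, and the ratios of its 5 genes lay between −0.48 for H2-Aa and −0.27 for H2-DMa. With equal covered bases in both lists the ratio of the locus was −0.17. In wild-type HPCs the locus had 53892 bases with IL-1 and 57892 with PBS, a ratio of −0.08. None of the 7 genes was past 1.5-fold in either genotype, against 1.09% of genes higher and 2.06% lower in the knockout and 1.35% and 1.91% in the wild type. On the genes themselves, 2 of 6 measured were past 1.5-fold lower in the knockout, H2-Eb1 at −1.18 and H2-DMb1 at −0.89, against 2.72% of genes. The other class II genes had −0.47 for H2-Ab1, −0.11 for H2-DMa and 0.12 for H2-Aa, which had 2196 bases with IL-1 and 2149 with PBS. In wild-type HPCs the ratios on the genes were −0.54 for H2-Eb1, −0.42 for H2-Ab1 and −0.03 for H2-DMb1. They were 0.07 for H2-Aa and 0.21 for H2-DMa. None was past 1.5-fold, against 1.76% of genes higher and 2.26% lower. H2-Eb1 with 1 kb on both sides had 0 bases with IL-1 and 1431 bases with PBS in knockout HPCs, against 762 and 1562 bases in wild-type HPCs with IL-1 and PBS. H2-DMb1 had 188 and 1372 bases in knockout HPCs with IL-1 and PBS, against 1249 and 1297 bases in wild-type HPCs. Its peaks were weak in these lists, with a −log10 p of 5.47 in the list of 188 bases and 3.44 in that of 1372 bases. The whole IL-1 list of the knockout covered 36.9 Mb against 43.1 Mb with PBS. Ciita went the other way in the knockout, at 5615 bases with IL-1 and 4150 with PBS, a ratio of 0.53, and had −0.01 in the wild type. The knockout ratio was 0.24 with windows of 100 kb and 0.04 with peaks of a −log10 p of at least 4. For knockout over wild type with IL-1, H2-DMb1 was at −0.87 on the gene itself, where 4.35% of genes were past 1.5-fold lower. The difference between the genotypes in the effect of IL-1 was not tested.

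5FU went with small differences in H3K27ac at these loci in HSCs. The class II locus had relative log2 ratios for 5FU over PBS of 0.04 in the knockout and 0.05 in the wild type, Cd74 had 0.28 and 0.13, and Ciita had −0.00 and 0.48. None of the 7 genes was past 1.5-fold, against 1.33% of genes higher and 1.03% lower in the knockout and 1.19% and 0.863% in the wild type. The Ciita ratio of the wild type rested on 4387 bases with 5FU and 2722 with PBS, and on the gene itself it had 0 bases with 5FU and 462 with PBS.

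For H3K4me1 at 16 weeks, H2-Ab1 was the 1 gene past 1.5-fold. Its window had 7639 bases in knockout HSCs with 5FU and 4716 with PBS, and 21883 and 8818 bases in wild-type HSCs with 5FU and PBS. The relative log2 ratio of 5FU over PBS in the knockout was 0.59, 1 of 7 genes past 1.5-fold higher against 3.26% of 14764 genes, and 0 of 7 lower against 5.11%. The ratio of knockout over wild type with PBS was −0.61, 1 of 7 past 1.5-fold lower against 5.48% of genes, and 0 of 7 higher against 3.84%. Both comparisons use the knockout PBS list, which had the lowest H2-Ab1 value of the 10 H3K4me1 lists. That list had no peak in the site at the lower end of H2-Ab1, which covered 963 bases in knockout HSCs with 5FU, 2866 in wild-type HSCs with 5FU and 783 in wild-type HSCs with PBS. H2-Aa, whose window holds the same site, had 0.50 and −0.49 in these comparisons, and H2-Eb1 had 0.24 and −0.41. With windows of 100 kb the H2-Ab1 ratios were 0.29 and −0.19. The 2 comparisons with the wild-type 5FU list had a median gene at −1.20 for knockout over wild type and 1.02 for 5FU over PBS. Relative to it, Cd74 lay at 0.56 and −0.45 in them, and 0 of 7 genes were past 1.5-fold, against 3.81% of genes higher and 10.4% lower for knockout over wild type and 7.46% and 2.35% for 5FU over PBS.

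**Figure D5:**
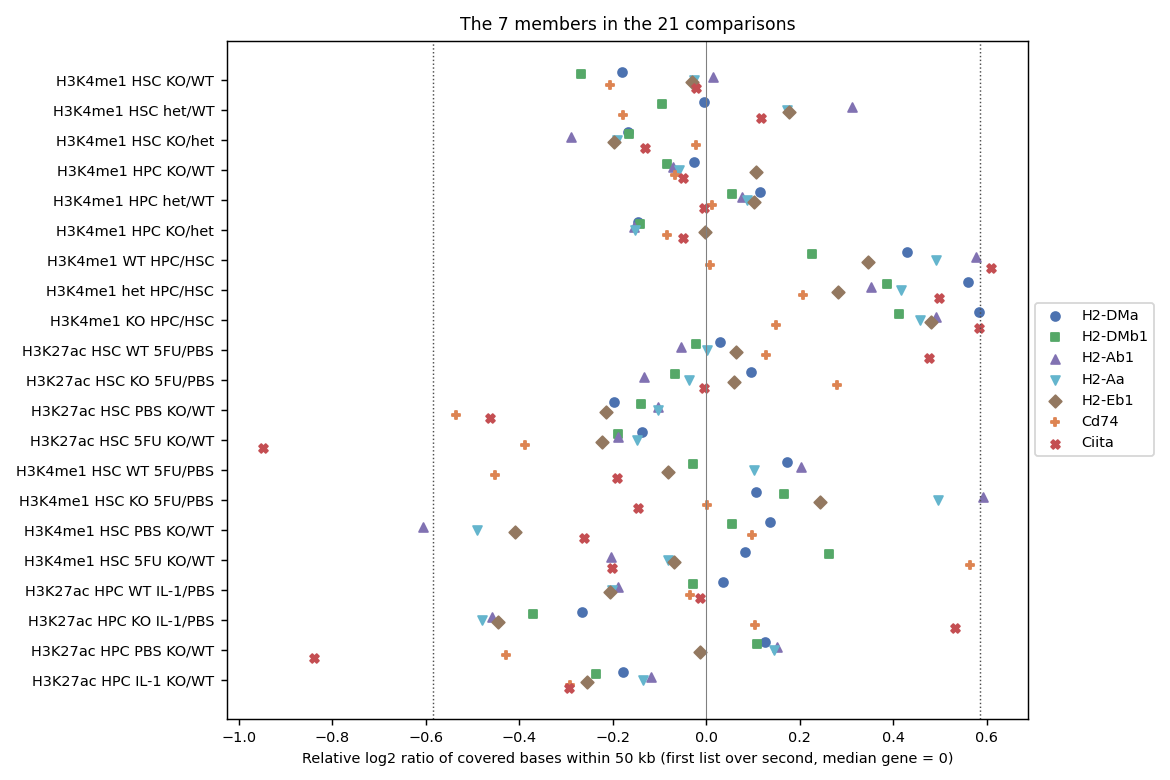
Relative log2 ratio of covered bases within 50 kb (x axis, first list over second, median gene at 0) of the 7 genes (symbols) in the 21 comparisons (rows); dotted lines mark 1.5-fold. Of 147 values, 2 lie past the right line and 3 past the left line, and the HPC over HSC comparisons have all 7 symbols at or right of 0.

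Regions found in 1 list of a pair and not in the other were counted in all windows together, with any overlap taken as shared. In wild-type H3K4me1 at 8 weeks, 58 of 155 regions (37.4%) were in the HPC list only and 16 (10.3%) in the HSC list only, against 28.4% and 25.2% of all regions of those lists. In the heterozygous lists 51 of 155 (32.9%) were in HPCs only and 16 (10.3%) in HSCs only, against 24.5% and 29.1%. In the knockout lists 48 of 166 (28.9%) were in HPCs only and 26 (15.7%) in HSCs only, against 21.6% and 32.8%. The windows held more HPC-only and fewer HSC-only regions than the whole lists in each genotype. Between genotypes at 8 weeks both shares were below those of the whole lists in all 6 comparisons. For knockout over wild-type HSCs, 38 of 142 regions (26.8%) were in the knockout only and 14 (9.86%) in the wild type only, against 34.2% and 13.3%. For heterozygous over wild-type HSCs, 35 of 136 (25.7%) and 15 (11%) were in 1 list only, against 29.6% and 16.4%, and for knockout over heterozygous HSCs, 29 of 144 (20.1%) and 21 (14.6%), against 26.1% and 17.7%. In HPCs, 27 of 154 (17.5%) were in the knockout only and 24 (15.6%) in the wild type only, against 24.4% and 19.8%. For heterozygous over wild-type HPCs the counts were 26 of 149 (17.4%) and 18 (12.1%), against 23.2% and 19.6%. For knockout over heterozygous HPCs they were 27 of 162 (16.7%) and 33 (20.4%), against 22.2% and 21.2%.

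In H3K27ac lists the wild type had more regions of its own than the knockout in 3 of 4 pairs. In HSCs with 5FU, 14 of 84 (16.7%) were in the knockout only and 34 (40.5%) in the wild type only, against 21.6% and 32.3% of all regions. In HSCs with PBS the counts were 7 of 72 (9.72%) and 26 (36.1%), against 16.2% and 35.2%. In HPCs with IL-1 they were 10 of 79 (12.7%) and 25 (31.6%), against 12.6% and 27.6%. HPCs with PBS went the other way, with 17 of 78 (21.8%) in the knockout only and 14 (17.9%) in the wild type only, against 14.8% and 24.6%. For IL-1 over PBS, 10 of 78 (12.8%) were in the IL-1 list only and 21 (26.9%) in the PBS list only in the knockout, against 16.5% and 22.5%, and 18 of 80 (22.5%) and 17 (21.2%) in the wild type, against 19.2% and 20.3%. For 5FU over PBS, 23 of 72 (31.9%) and 14 (19.4%) were in 1 list only in the knockout, against 36.2% and 17%, and 31 of 93 (33.3%) and 24 (25.8%) in the wild type, against 30.6% and 19.8%. In H3K4me1 lists at 16 weeks, 26 of 130 (20%) were in knockout 5FU only and 30 (23.1%) in knockout PBS only, against 22.8% and 27.3%. With PBS, 21 of 133 (15.8%) were in the knockout only and 30 (22.6%) in the wild type only, against 20% and 29.1%. With 5FU, 1 of 144 (0.694%) was in the knockout only and 79 (54.9%) were in the large wild-type list only, against 1.23% and 59.8%. For 5FU over PBS in the wild type, 72 of 151 (47.7%) were in the 5FU list only and 8 (5.30%) in the PBS list only, against 52.4% and 2.6%.

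Other genes of the pathway were followed through a list of 25, which holds the remaining class II genes, the RFX and NF-Y subunits, Creb1, lysosomal proteases and the interferon-γ route to Ciita. In H3K4me1 lists of HPCs over HSCs, 17 of 25 lay above the median gene in the knockout, 18 in the heterozygous mice and 17 in the wild type. Past 1.5-fold higher were 5 in the knockout, 3 in the heterozygous mice and 2 in the wild type, and 2, 2 and 1 were past 1.5-fold lower. Of all genes, 8.92%, 9.16% and 9.84% were past 1.5-fold higher in these comparisons and 12.6%, 10.8% and 9.15% lower. Irf8, a factor of monocyte and dendritic cell development, had 51614, 48147 and 42432 bases in knockout, heterozygous and wild-type HPCs, against 22283, 20681 and 19808 bases in HSCs. Its relative log2 ratios were 1.32, 1.21 and 0.81. Marchf1, a ubiquitin ligase that takes class II off the surface, had 12604, 13656 and 14991 bases in HPCs and 7185, 6889 and 4371 bases in HSCs, with ratios of 0.87, 0.93 and 1.32. Among the factors that bind the boxes, Rfx5 was lower in heterozygous HPCs at −0.72 and Rfxap in knockout HPCs at −0.77. Further genes past 1.5-fold higher were Ctsl at 0.74, Cd86 at 0.64 and H2-Oa at 0.63 in the knockout, and Ifngr2 at 0.60 in the heterozygous mice. The list's median was 0.41, 0.36 and 0.28 in knockout, heterozygous and wild-type lists, where the median gene is at 0.

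In the other comparisons few of the 25 passed. Cd80, which encodes a costimulatory ligand for T cells, was lower in knockout HPCs for H3K4me1, with 3219 bases against 5639 in heterozygous and 5371 in wild-type HPCs, and ratios of −0.69 and −0.59. Jak1, a kinase of the interferon receptors, had less H3K27ac in knockout HPCs, at 11092 bases against 21175 in wild-type HPCs with IL-1 and 17249 against 28387 with PBS, with ratios of −0.78 and −0.74. In HSCs, Irf4 had 2036 bases of H3K27ac in the knockout and 4523 in the wild type with 5FU (−0.71), and Irf8 had 6407 and 12306 (−0.69). With IL-1 over PBS, Irf4 was higher in both genotypes, with 6593 and 3929 bases in knockout HPCs (0.80) and 7370 and 4639 bases in wild-type HPCs (0.59). Ifngr2 was higher in wild-type HPCs, at 13405 and 8486 bases (0.62), and Marchf1 lower in knockout HPCs, at 934 and 2304 bases (−0.60). With 5FU over PBS in wild-type HSCs, Marchf1 had 2765 and 937 bases of H3K27ac (0.90). For H3K4me1 at 16 weeks, Lgmn, a lysosomal protease, had 21048 bases with 5FU and 12584 with PBS in knockout HSCs (0.69), and with PBS Rfxap had 1523 bases in the knockout and 759 in the wild type (0.70) and Cd86 had 471 and 2156 (−0.93). The comparisons with the large wild-type 5FU list passed Cd80 at 0.78, Nfyc at 0.72 and Rfxap at 0.64 for 5FU over PBS, and Cd80 at −0.95, Cd86 at −0.84 and Irf4 at −0.73 for knockout over wild type.

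The labels were checked against marker genes, by the bases covered on a gene with 1 kb on both sides. The 8 HSC markers summed to 121119 to 127245 bases of H3K4me1 in HPCs and 245946 to 378618 bases in HSCs at 8 weeks, and the 6 markers of the myeloid line to 34638 to 39782 and 20358 to 22647 bases, so both labels had the higher sum of their own markers. Ctsg, 1 of these 6 myeloid markers, was at 0 in heterozygous and wild-type HPCs as well as in all 3 HSC lists. In H3K27ac the HSC markers summed to 43564 to 52010 bases in HPCs and 89394 to 120755 bases in HSCs. Markers of cells known for class II, and of T cells, were summed the same way. The 8 B cell markers summed to 23014 to 25053 bases of H3K4me1 in HPCs and 16102 to 18568 bases in HSCs at 8 weeks, and to 8422 to 11928 and 5581 to 10602 bases of H3K27ac in HPCs and HSCs. Ms4a1 and Cd22 were at 0 in all 8 H3K27ac lists. The 8 dendritic cell markers summed to 58836 to 62045 bases of H3K4me1 in HPCs and 34990 to 39123 bases in HSCs, and to 36748 to 48089 and 16206 to 24313 bases of H3K27ac, with Siglech and Batf3 at 0 in all 8 H3K27ac lists. This list holds Flt3, which progenitors also express. The 6 macrophage markers summed to 8231 to 8951 bases of H3K4me1 in HPCs and 6065 to 8441 in HSCs, and Adgre1, C1qa and C1qb were at 0 in all 8 H3K27ac lists. The 6 T cell markers summed to 9150 to 10602 bases of H3K4me1 in HPCs and 4355 to 6939 in HSCs. H3K27ac on the macrophage markers summed to 3737 to 4310 bases in HPCs and 1652 to 2893 in HSCs, and on the T cell markers to 4099 to 4748 and 2213 to 3212 bases, with Cd3e, Cd3g, Cd8a and Bcl11b at 0 in all 8 H3K27ac lists. The sums of these 4 lists were thus higher in HPCs, with overlapping ranges for B cell markers under H3K27ac and for macrophage markers under H3K4me1. They moved with the class II marks, and their part in the values above was not tested.

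Across the 18 lists, the genes with the window cover most like that of Ciita were Ctr9, Calml3, Olfr374, Ankrd33 and Apbb2, with Spearman's rho of 0.99 for each, leaving out genes within 1 Mb. For the class II locus they were Chka, Kif5a, Upk3b, Pcif1 and Syk, also at 0.99. The lists share 2 marks and their own sizes. The total bases covered by a list had a rho of 0.88 with Ciita and of 0.83 with the class II locus, and the median gene had 0.66 and 0.67.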

How the data were processed

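The deposited files are 18 narrowPeak lists, 1 for all libraries of a group, so libraries could not be compared within a group, and the labels do not say whether each library came from its own animals. Per the submitters' processing notes, Novoalign, MACS2 and mm10 (GRCm38) were used. Tool versions, the filter and how libraries were joined were not given in the sources used here. Peak positions, the fold enrichment and the −log10 p and −log10 q of each peak are the authors' deposited values, used only to describe or filter peaks within a list. Read depth is unknown. The 6 input libraries were not analysed here.

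Overlapping peaks were merged and covered bases summed over each RefSeq gene interval with 50 kb on both sides. A gene entered a comparison where 1 of the lists covered at least 1000 bases of its window. After 1000 bases were added to both lengths, the log2 ratio was taken relative to the median gene, and 1.5-fold was counted. A region was present in a list at an overlap of at least 1 bp. No test was run, since each group has 1 list. Alternatives were windows of 10 and 100 kb, 5000 added bases, peaks with a −log10 p of at least 4, equal numbers of peaks, equal covered bases and no subtraction, and for regions merging within 500 bp and overlaps of 10% and 50%. The gene interval with 1 kb on both sides was added after seeing the data.

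The 7 genes, the list of 25 pathway genes and the markers were chosen with earlier results of these data known. All 7 were named in each comparison, and of the 25 up to 3 in each direction with the largest ratios past 1.5-fold, except in knockout HPCs over HSCs, where more than 3 higher ones are named. Some values of the gene lists are not reported here. Neighbouring genes and single sites were picked after their values were seen. Exon positions were not used here. Computations used Python 3.11.15, numpy 2.4.6, pandas 2.3.3 and matplotlib 3.10.9, and were tested on simulated peaks.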

Additional observations from a re-analysis of the deposited data

How the results depend on the processing

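No paired analysis was possible because each group has 1 pooled list, with no values for single libraries. Of the 147 values of the 7 genes, 2 were past 1.5-fold higher and 3 lower. With windows of 10 kb these counts were 8 and 8, with 100 kb 1 and 1, with 5000 added bases 0 and 0, with a −log10 p of at least 4 they were 4 and 5, without subtraction of the median gene 12 and 16, and on the gene with 1 kb on both sides, an alternative chosen after seeing the data, 4 and 5. Genes under 1000 bases in both lists gave no value, which left 145, 146 and 132 values at 10 kb, with the −log10 p of at least 4 and on the gene. With equal covered bases 7 were higher. The windows together passed 1.5-fold in no comparison, but did so without subtraction for H3K4me1 in wild-type HPCs over HSCs at 0.63, 5FU over PBS in the wild type at 0.94 and knockout over wild type with 5FU at −1.11. Ciita under H3K27ac, knockout over wild-type HSCs with 5FU, changed sign to 0.39 with equal covered bases. Regions in 1 list only, summed over the comparisons, numbered 589 for the first list and 505 for the second, against 219 and 201 with merging within 500 bp and 251 and 198 at 10 kb. The cause of these shifts was not tested, beyond the smaller windows and merged regions holding fewer peaks. Of 495 values of single loci, 463 stayed on the same side of 1.5-fold, but some of these changed sign short of it. Ciita under H3K27ac, knockout over wild-type HPCs with IL-1, went from −0.29 to 0.44 with equal covered bases. Without replicate lists, no spread between libraries can be given.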
